A study of Mus musculus with 3 samples.

Results

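The genes studied here encode the ligands and receptors that steer growing axons, and the question asked of them is how close they lie to the sites where the long non-coding RNA *Dali* was found on chromatin. They are 60 genes of 22222 protein-coding genes in the annotation, and they were listed by name from 9 families. Binding was measured in N2A, a mouse neuroblastoma cell line, which was untreated and used throughout as a single line. 3 pull-downs with differing cocktails of biotinylated oligonucleotides against *Dali*, each from about 300000000 cells and 810 pmol of oligonucleotides, were made by CHART-Seq, in which an RNA is captured by hybridisation and the DNA cross-linked to it is eluted with RNase H and sequenced. Peaks were called against input DNA and against *lacZ* oligonucleotide pull-downs from an earlier experiment in the same line, and those samples were not analysed here. The deposited list has 1427 peaks, each with a position on mm9 and 1 score (from 6.89 to 108.25, median 19.11) for the pull-downs together. The list used here gives neither read counts nor values per pull-down, so sequencing depth and variation among the pull-downs are not known from it. All values below are therefore descriptions of 1 list, set beside the same values over all genes or all peaks, and none carries a test. The files hold no expression values, so neither the cell type nor the expression of these genes was checked.

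Guidance genes work as matched pairs. Semaphorins signal through plexins, and most of the secreted ones (the Sema3 genes) first bind a neuropilin, which holds the ligand for the plexin. Slits are secreted repellents that bind Robo receptors, netrins attract axons through Dcc and repel them through Unc5 receptors, and the membrane-bound ephrins activate Eph receptor tyrosine kinases. In developing brain these systems set midline crossing, topographic maps and axon branching, and several also pattern blood vessels.

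As a family, the guidance genes lay about as far from *Dali* peaks as other genes did. For each gene the peak whose midpoint was nearest to any of its protein-coding transcription start sites (TSSs) was taken. 1 of the 60 genes (1.67%) had a peak within 1 kb, against 1.88% of all protein-coding genes. 2 genes (3.33%) had one within 10 kb, against 3.69%, and 12 genes (20%) had one within 100 kb, against 18.4%. Each of these shares is near its background. The median distance was 522 kb with quartiles of 109 and 1984 kb, and over all genes it was 493 kb with quartiles of 153 and 1424 kb. 26 genes lay between 100 kb and 1 Mb from a peak, and the other 22 (36.7%, against 33.1% of all genes) had none within 1 Mb. None of the 12 genes within 100 kb had more than 1 peak in that range.

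**Figure D1:**
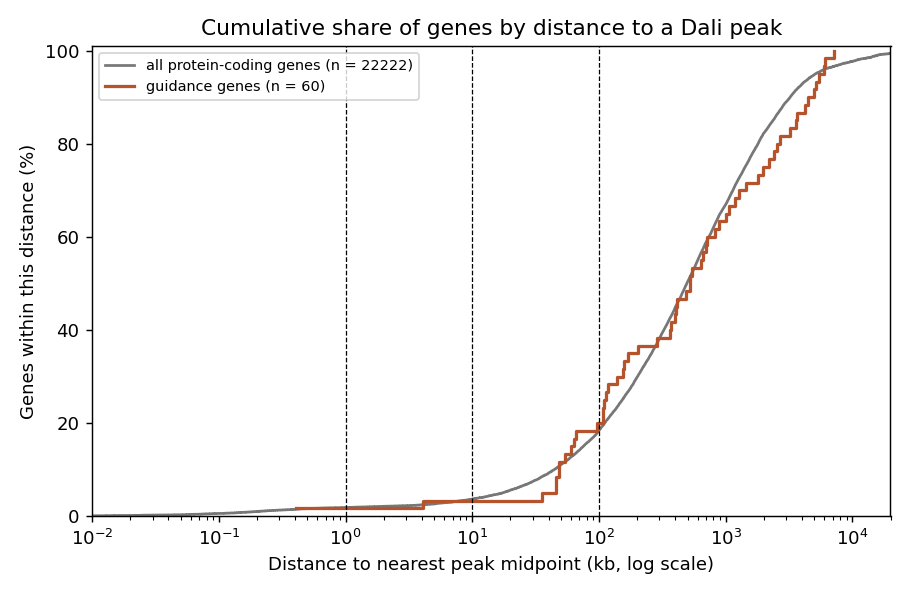
Cumulative share of genes (%) with a *Dali* peak midpoint within a given distance of a protein-coding TSS (kb, log scale), for the 60 guidance genes and for all 22222 protein-coding genes. The lines run close together, at 20% and 18.4% at 100 kb, and dashed lines mark 1, 10 and 100 kb.

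Ligands and receptors had a peak within 100 kb about equally often. 6 of 31 ligand genes (19.4%) and 6 of 29 receptor genes (20.7%) had a peak at that distance, against 18.4% of all genes. The genes within 10 kb, where the background share is 3.69%, were the neuropilins *Nrp2* and *Nrp1*. The next gene outwards was a ligand, *Sema3b*, at 35.6 kb, so that 10 kb fell in a wide gap, while 100 kb fell between *Efna1* at 96.5 kb and *Efna2* at 108 kb. The median distance was 412 kb for ligands and 705 kb for receptors. Without the neuropilins, 10 of the remaining 58 genes (17.2%) had a peak within 100 kb.

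**Figure D2:**
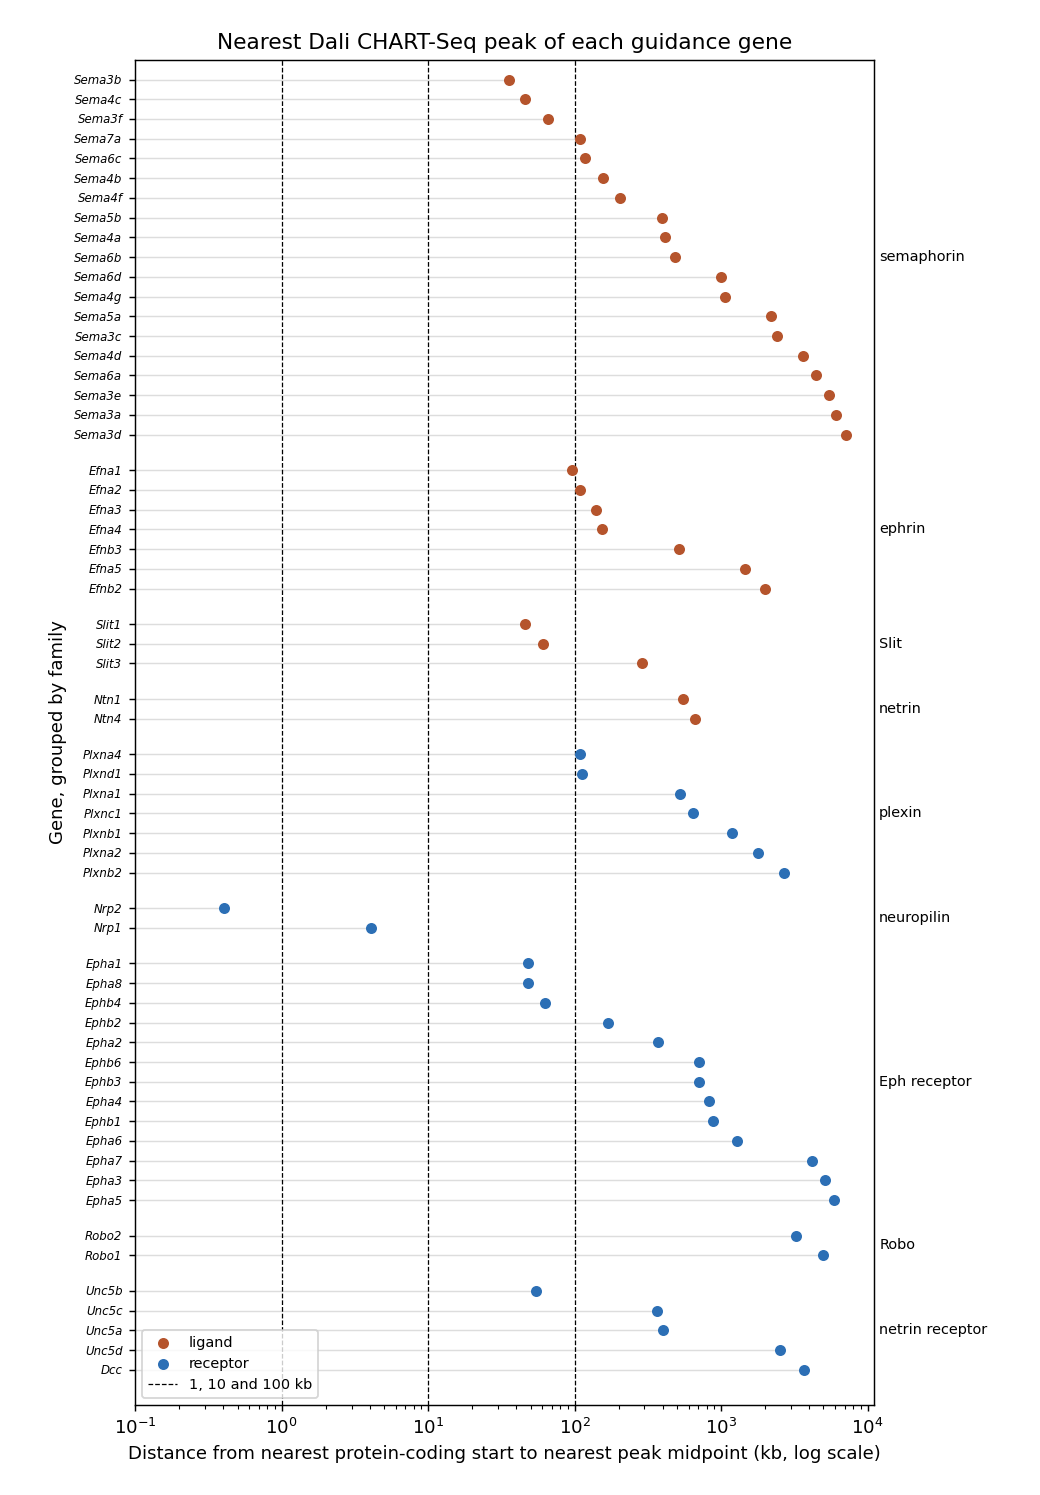
Distance from the nearest protein-coding TSS to the nearest *Dali* peak midpoint (kb, log scale) for each of the 60 guidance genes, grouped by family and coloured by role. *Nrp2* at 0.407 kb and *Nrp1* at 4.07 kb lie to the left of 10 kb, and the 58 others run from 35.6 to 7114 kb.

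Both neuropilin genes had a peak at their 5′ end. Neuropilins are the co-receptors of the secreted semaphorins, *Nrp1* chiefly for Sema3a and *Nrp2* chiefly for Sema3f, and both also bind forms of VEGF. *Nrp2* starts at position 62749859 of chromosome 1 on the forward strand. Its nearest peak ran from 62749246 to 62749659, with its midpoint 407 bp upstream of that TSS, and touched no protein-coding gene. The score was 25.4, which ranks 405 of 1427. *Nrp1* lies on the forward strand of chromosome 8 from 130882973 to 131029362. Its peak ran from 130886565 to 130887524, with its midpoint 4.07 kb downstream of the only annotated TSS and a score of 32.26 (rank 205). This peak covered the whole of exon 2 of 17, all 175 bases of it coding, with intron on either side. In each case no other protein-coding gene had a TSS closer to the peak.

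The 2 peaks differed in base composition, and their central 300 bases are printed for that reason. The *Nrp2* peak had a GC content of 54.6% and an observed to expected CpG ratio of 0.716, which meets the usual criterion of a CpG island (at least 50% and at least 0.6). The *Nrp1* peak had 44.7% and 0.256 and does not meet it. Capitals mark CpG in the *Nrp2* window (mm9 chr1:62749303-62749602, forward strand, 15 CpG) and coding bases in the *Nrp1* window (mm9 chr8:130886895-130887194, forward strand, 4 CpG).
Nrp2: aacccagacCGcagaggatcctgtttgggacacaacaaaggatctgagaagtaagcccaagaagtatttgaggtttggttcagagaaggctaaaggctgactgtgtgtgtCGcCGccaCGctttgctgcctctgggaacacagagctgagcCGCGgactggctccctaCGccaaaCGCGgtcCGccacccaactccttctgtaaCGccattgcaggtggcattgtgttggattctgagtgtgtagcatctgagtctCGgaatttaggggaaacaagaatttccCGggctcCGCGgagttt
Nrp1: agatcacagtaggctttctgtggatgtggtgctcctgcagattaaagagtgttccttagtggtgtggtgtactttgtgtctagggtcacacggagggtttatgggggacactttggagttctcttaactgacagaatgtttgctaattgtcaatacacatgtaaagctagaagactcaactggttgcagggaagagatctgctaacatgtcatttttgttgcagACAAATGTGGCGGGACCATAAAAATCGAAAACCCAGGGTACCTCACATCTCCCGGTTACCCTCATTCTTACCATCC
Over all peaks the median was 5 CpG in a window of this length, and 14.0% of windows held 15 or more.

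*Nrp2* had further peaks around it. A regulatory region was drawn for each gene: the 5 kb before and the 1 kb after its first TSS, extended on either side to the next gene's region or by at most 1 Mb. That of *Nrp2* held 3 peaks, more than that of any other guidance gene but *Slit3*, which also held 3. The share of all genes with that many is not given here, and 9.15% of all genes had any. Beside the one at the TSS, *Nrp2* had a peak 154 kb upstream in an intron of *Pard3b*, a cell polarity gene, with a score of 18.09. The other lay 248 kb downstream between genes, with a score of 9.04 (rank 1392). The closest TSS to the upstream peak was that of *Nrp2* itself, and the closest to the downstream peak was that of *Ino80d*, at 163 kb. The region of *Nrp1* held only the peak at exon 2.

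All 3 Slit genes held a peak inside the gene. Of all genes 2.63% did, and of genes of at least 100 kb 9.48%. *Slit1*, *Slit2* and *Slit3* are 143, 323 and 587 kb long, against a median of 15.5 kb over all genes. Slits are large secreted proteins, best known for keeping axons from recrossing the midline. In *Slit1*, on the reverse strand of chromosome 19, a peak from 41771696 to 41772404 lay in an intron 45.9 kb downstream of the nearest TSS, with a score of 18.09. In *Slit2*, on chromosome 5, a peak from 48572928 to 48573239 lay in an intron after the fifth exon of the long transcripts, 199 kb downstream of the first TSS, with a score of 12.35. The nearest protein-coding TSS, that of a shorter transcript, was 60.7 kb further on. A transcript of *Slit2* not annotated as protein-coding starts 260 bp from the midpoint. A second peak of the *Slit2* region lay 113 kb upstream of the gene, with a score of 13.87. The peaks inside *Slit1* and *Slit2* ranked 783 and 1237, with scores below the median of 19.11 over all peaks.

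*Slit3* held the highest-scoring peaks found inside any of the 60 genes. Its body on chromosome 11 contained 3, all in introns and all far from the TSS: 385 kb downstream with a score of 41.46 (rank 79), 475 kb downstream with a score of 9.95, and 481 kb downstream with a score of 39.21 (rank 108). For all 3 the closest protein-coding TSS was that of *Pank3*, at 264, 173 and 168 kb. The last pair lay in neighbouring introns, after exons 11 and 12 of 36, and the first lay after exon 4. By the rule of the nearest TSS, however, *Slit3* was paired with another peak, 288 kb upstream, which overlapped the 5′ UTR of *Ccdc99* and had a score of 39.03. With the start sites of all annotated transcripts, the peak after exon 4 became the nearest, at 38.8 kb. The centre of that peak (mm9 chr11:35319281-35319580, forward strand) is printed as the highest-scoring site inside a guidance gene, with its 6 CpG in capitals.
Slit3: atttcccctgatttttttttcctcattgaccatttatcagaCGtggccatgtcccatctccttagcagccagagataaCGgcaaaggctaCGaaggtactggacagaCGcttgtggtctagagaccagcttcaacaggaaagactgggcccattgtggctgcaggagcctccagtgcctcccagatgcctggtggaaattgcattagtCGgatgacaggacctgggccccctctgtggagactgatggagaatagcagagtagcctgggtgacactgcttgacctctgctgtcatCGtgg

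The Slit receptors stood at the other end. *Robo1* and *Robo2*, neighbours on chromosome 16, shared a nearest peak with a score of 35.23 that lay between genes, 4981 kb from *Robo1* and 3233 kb from *Robo2*. Neither had a peak in its body or regulatory region, and both had 0 other protein-coding genes starting within 1 Mb. Ligand and receptor genes of this system thus differed in these values. With 3 genes against 2, that difference is given as a description.

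**Figure D3:**
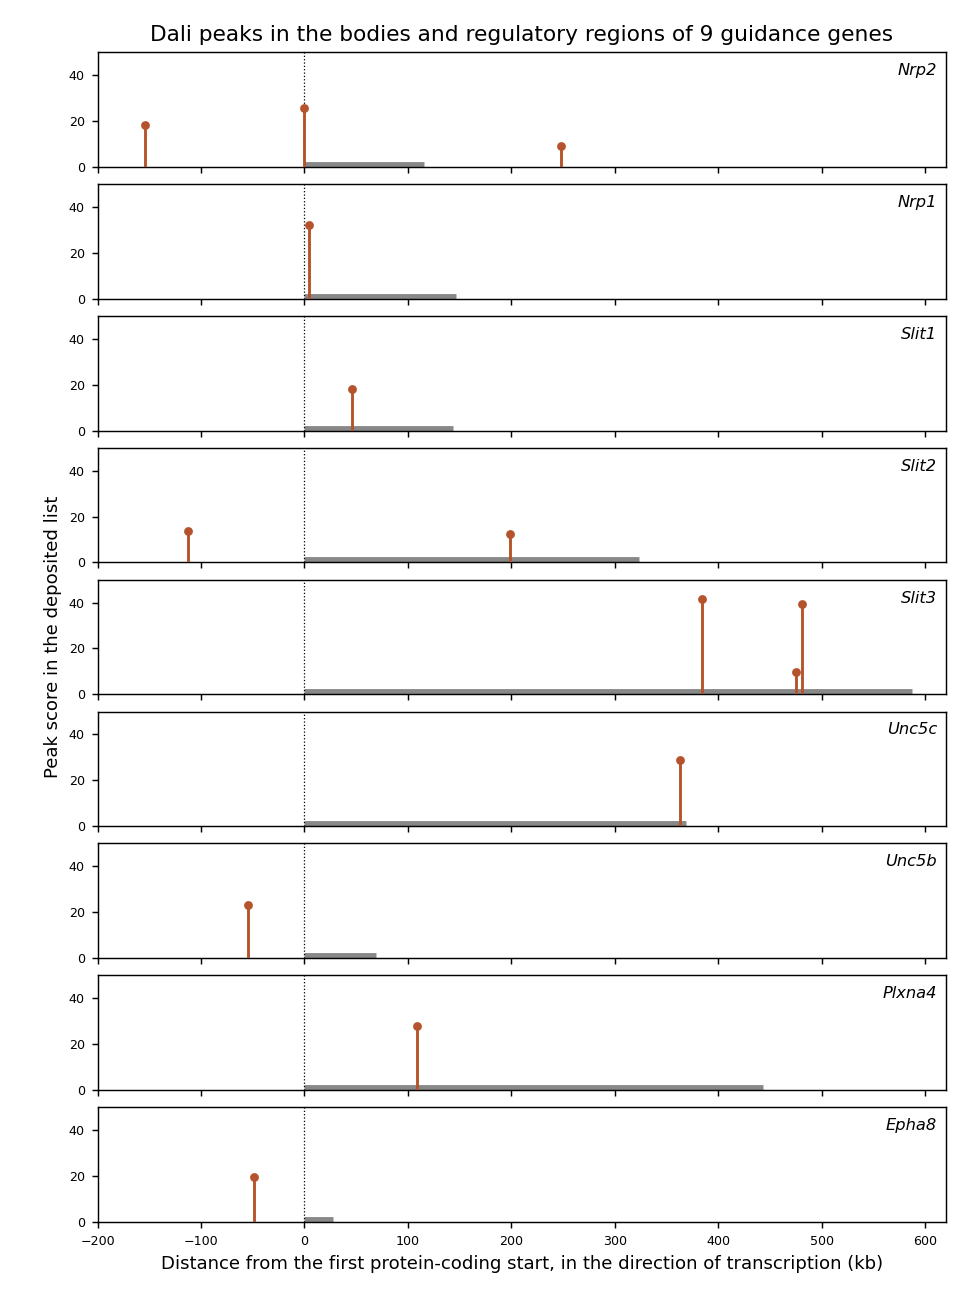
*Dali* peaks in the bodies and regulatory regions of the 9 guidance genes that had any, by distance from the first protein-coding TSS in the direction of transcription (kb) and by score in the deposited list. Grey bars are gene bodies. The peaks of *Slit3* reach scores of 41.46 and 39.21 at 385 and 481 kb into the gene, while *Nrp1* and *Nrp2* each have a peak at or near the TSS.

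Among netrins and their receptors, 1 of the 7 genes, *Unc5b*, was within 100 kb of a peak, where the share of all genes is 18.4%. This repulsive receptor had a peak 54.1 kb upstream, between genes, with a score of 23.19, and its regulatory region held that peak alone. *Unc5c* held a peak across the start of its last exon, from 141490965 to 141491601 on chromosome 3, 363 kb downstream of the nearest protein-coding TSS and with a score of 28.93. With the start sites of all annotated transcripts this distance was 38.5 kb, and the closest protein-coding TSS of any gene was that of *Bmpr1b*, at 103 kb. It overlapped 231 bases of the last exon, 163 of them coding. *Unc5a* was 402 kb and *Unc5d* 2527 kb from a peak. *Dcc*, the attractive receptor, was 3684 kb away, and the ligands *Ntn1* and *Ntn4* were 547 and 663 kb away. The netrin genes and *Dcc* therefore had no peak in reach of any of the 3 limits. The *Unc5c* window (mm9 chr3:141491134-141491433, forward strand) shows the edge of the exon, with coding bases in capitals, as the other peak that runs into coding sequence of a guidance gene.
Unc5c: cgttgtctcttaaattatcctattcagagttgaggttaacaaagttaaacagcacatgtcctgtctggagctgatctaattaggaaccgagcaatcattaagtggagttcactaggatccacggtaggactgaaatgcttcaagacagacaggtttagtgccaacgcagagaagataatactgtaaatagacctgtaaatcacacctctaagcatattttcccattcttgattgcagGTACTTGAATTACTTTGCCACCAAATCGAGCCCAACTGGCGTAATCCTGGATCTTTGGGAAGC

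Of the 7 plexins, the signalling receptors of semaphorins, 0 had a peak within 100 kb of a protein-coding TSS, where the share of all genes is 18.4%. *Plxna4* came nearest, with a peak in its own intron 109 kb downstream of the TSS, on chromosome 6 from 32429182 to 32429753 and with a score of 28.04. It was the one plexin with a peak inside the gene. *Plxnd1*, which acts in vessel as well as axon patterning, was 113 kb from a peak in an intron of *Ift122*, or 99.7 kb with the start sites of all annotated transcripts. *Plxna1*, *Plxnc1*, *Plxnb1*, *Plxna2* and *Plxnb2* were 526 to 2692 kb away. The *Plxna4* peak was also the one with a match to the CTCF word inside a guidance gene that held no mismatch, and it is printed for that site. The window (mm9 chr6:32429318-32429617, reverse strand, the strand of the gene) holds 0 CpG, and capitals mark the match, which stands here as the reverse complement of the consensus.
Plxna4: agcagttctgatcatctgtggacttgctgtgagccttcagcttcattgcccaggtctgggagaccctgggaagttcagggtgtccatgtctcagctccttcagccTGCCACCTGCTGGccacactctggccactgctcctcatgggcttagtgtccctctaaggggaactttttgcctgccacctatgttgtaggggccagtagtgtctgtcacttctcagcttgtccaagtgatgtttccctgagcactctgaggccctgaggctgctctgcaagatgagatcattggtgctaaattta

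The 19 semaphorin genes lay between 35.6 and 7114 kb from a peak, and none held one in its body or regulatory region. *Sema3b* and *Sema3f*, both on chromosome 9, shared a peak with a score of 20.28, at 35.6 and 65.7 kb. Its closest TSS was that of *Gnai2*, a G protein subunit, at 9.48 kb. *Sema4c* was 45.8 kb from a peak with a score of 23.43 on the 5′ UTR of *Cnnm3*. The other 16 had no peak within 100 kb. *Sema3a*, *Sema3c*, *Sema3d* and *Sema3e*, which lie on chromosome 5, were all paired with 1 peak in an intron of *Magi2*, 2417 to 7114 kb away. With a score of 7.29 it ranked 1421 of 1427. The 3 genes farthest from any peak were *Sema3d* (7114 kb), *Sema3a* (6098 kb) and the Eph receptor *Epha5* (5922 kb).

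The remaining semaphorins spread over the whole range. *Sema7a* (108 kb), *Sema6c* (118 kb), *Sema4b* (156 kb) and *Sema4f* (203 kb) followed *Sema3f*, and their peaks lay in introns or 5′ UTRs of *Arid3b*, *Psmd4*, *Hddc3* and *Rtkn*. *Sema5b*, *Sema4a* and *Sema6b* were 396 to 487 kb away. *Sema6d*, *Sema4g*, *Sema5a*, *Sema4d* and *Sema6a* were 1007 to 4472 kb away.

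Ephrins and Eph receptors had 4 genes of 20 within 100 kb, where the share of all genes is 18.4%. In each the peak was closer to the TSS of another gene. Over all genes, 5.49% had the closest TSS to their nearest peak. *Efna1*, *Efna3* and *Efna4*, adjacent on chromosome 3, shared a peak with a score of 14.08 on the 5′ UTR of *Fam189b*, at 96.5, 140 and 155 kb. *Efna2* was 108 kb from a peak in an intron of *Sbno2*, and *Efnb3*, *Efna5* and *Efnb2* were 518, 1451 and 1984 kb away. Among the receptors, *Epha1* was 48.0 kb from a peak with a score of 14.93, whose closest TSS was that of *Fam131b* at 0.653 kb. *Epha8* was 48.3 kb from a peak with a score of 19.82 in an intron of *Zbtb40*, and this was the one Eph or ephrin gene with a peak in its regulatory region. *Ephb4*, which with *Efnb2* marks veins and arteries, was 63.0 kb from a peak with a score of 16.63 at the 5′ end of *Ache*. The other 10 Eph receptors were 169 to 5922 kb away, from *Ephb2* and *Epha2* (371 kb) through *Ephb6*, *Ephb3*, *Epha4*, *Ephb1* and *Epha6* to *Epha7*, *Epha3* and *Epha5*.

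For most of the genes, another gene lay closer to the paired peak. The 60 genes were paired with 48 distinct peaks, of which 9 served more than 1 gene and 21 genes in all. For 5 genes (8.33%, against 5.49% of all genes) no other gene had a TSS closer to the peak: *Nrp1*, *Nrp2*, *Plxna4*, *Slit1* and *Slit2*. For the other 55 at least 1 gene lay closer. 10 of the 48 peaks overlapped a 5′ UTR, and 0 of these were UTRs of a guidance gene. Taken from the side of the peaks, 7 of 1427 had a guidance gene as their closest TSS, 2 each for *Nrp2* and *Slit2* and 1 each for *Nrp1*, *Plxna4* and *Slit1*. The guidance genes are 60 of the 22222 genes.

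Inside gene bodies the guidance genes had peaks more often than genes in general, and they are also longer. 6 of the 60 (10%, against 2.63% of all genes) held a peak midpoint between their outer transcript ends: *Slit1*, *Slit2*, *Slit3*, *Nrp1*, *Unc5c* and *Plxna4*. Their median length was 111 kb, against 15.5 kb over all genes. Among genes of at least 100 kb the counts were 6 of 31 (19.4%) and 9.48%. Per Mb of summed gene length, the guidance genes held 0.707 peaks and all genes 0.645. Among genes of at least 100 kb these densities were 0.759 and 0.462. 5 of the 8 peaks inside guidance genes were in Slit genes. The scores of the 8 ran from 9.95 to 41.46 with a median of 28.5, against 19.11 over all peaks. In the regulatory region, 9 genes (15%, against 9.15%) had a peak: the same 6 with *Nrp2*, *Epha8* and *Unc5b*. What part gene length has in these counts was not tested.

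The 48 peaks were set beside the whole list in composition and location, without a test. Their median GC content was 52.8%, against 51.1% over all peaks, and their median width was 558 bp, against 637 bp. 11 (22.9%, against 15.5%) met the CpG island criterion. 10 (20.8%, against 19.4%) overlapped a 5′ UTR and 3 (6.25%, against 3.22%) a coding exon, while 19 (39.6%, against 30.2%) lay in introns and 16 (33.3%, against 46.5%) between genes. Being nearest to a gene is what selected these peaks, so their positions relative to genes are not independent of the choice. Within the bodies of guidance genes, 0 of 8 peaks met the island criterion, and the ratio of observed to expected CpG was at most 0.258.

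**Figure D4:**
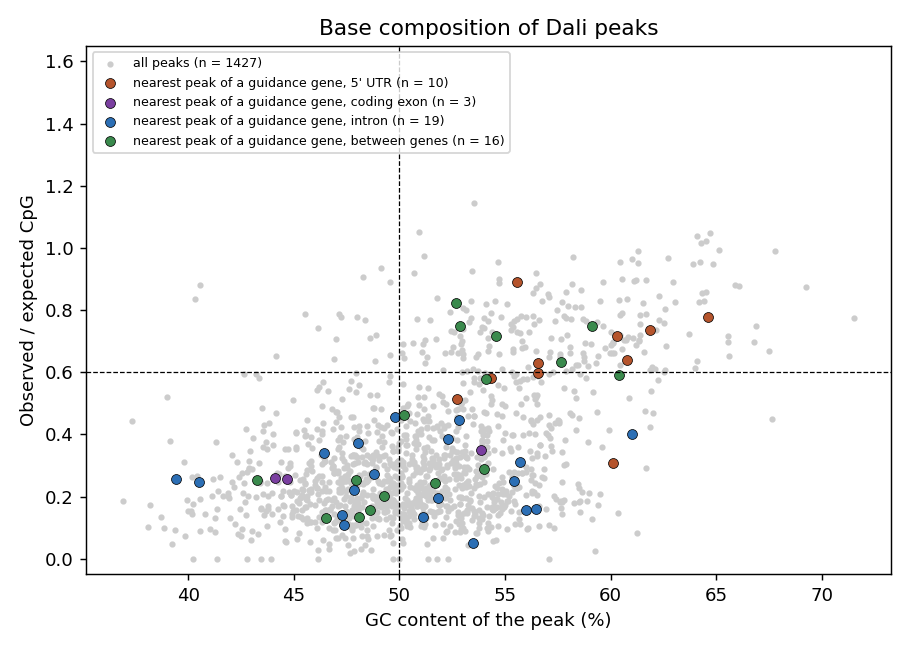
GC content (%) against the ratio of observed to expected CpG for all 1427 *Dali* peaks and for the 48 peaks nearest to a guidance gene, coloured by location. Dashed lines mark 50% and 0.6. 11 of the 48 lie above both limits, and no peak in an intron or coding exon is among them.

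Words bound by known factors were searched on both strands. The CTCF word, the consensus of the binding site of the insulator protein CTCF, was found with at most 1 mismatch in the central 500 bp of 5 of the 48 peaks (10.4%, against 16.5% of all peaks). With no mismatch it was found in 3 (6.25%, against 5.68%), those nearest to *Plxna4*, to *Plxna1*, and to *Unc5a* and *Sema4d* together. In *Plxna4* the match reads CCAGCAGGTGGCA on the forward strand of the genome, opposite to the strand of the gene. In the central 300 bases, GGGCGG, bound by Sp1, was in 10 of 48 windows (20.8%, against 19.1% of all peaks). CAGCTG, an E-box of the kind that proneural factors bind, was in 13 (27.1%, against 21.3%), with 2 copies in the *Slit1* window. TAATTA, a homeodomain site, was in 3 (6.25%, against 6.66%), one of them the *Unc5c* window, and ATGCAAAT, the octamer of POU factors, was in 0 of 48 and 22 of 1427 (1.54%). A match describes the letters in a window and not a factor bound there. These short words are a different measure from the authors' motif search, which reported a POU III family motif in more peaks.

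Other genes of the pathway were set beside the 60. Of 25 further ligands, receptors and co-receptors, 24 were matched in the annotation. 1 (4.17%, against 1.88% of all genes) had a peak within 1 kb and 3 (12.5%, against 18.4%) within 100 kb. The gene within 1 kb was *Flrt3*, a membrane protein that binds Unc5 receptors and Robo1, with a peak 185 bp downstream of its TSS on the 5′ UTR and a score of 20.59. Of 44 intracellular effectors of guidance signalling, 0 were within 1 kb, 4 (9.09%, against 3.69% of all genes) within 10 kb and 14 (31.8%, against 18.4%) within 100 kb. Among them were *Ablim1* (2.45 kb), which links signals to actin, *Srgap3* (5.29 kb), a GTPase-activating protein of Slit and Robo signalling, and *Vav2* (5.64 kb), an exchange factor used by Eph receptors. The scores of these peaks were 26, 12.5 and 19.25. No test was made between the lists. The effectors had a median of 3 TSSs and a median length of 114 kb, against 1 and 15.5 kb over all genes. What part these have in the counts was not tested.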

How the data were processed

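N2A cells gave 3 CHART-Seq samples for *Dali*. Per the labels and the methods, the authors aligned the read pairs with bowtie (mm9), used MACS2 for peak calling, kept calls under a q value limit and deposited, as 1 list, the peaks that passed against input as well as against *lacZ*. The deposited score has no header, and its scale is not given in the sources used here, so it served to rank and select peaks only. The list holds no read counts, so depth is unknown here.

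TSSs came from GENCODE M1 on NCBIM37, which is mm9, and all peaks lay within its chromosomes. A TSS was the start of a transcript annotated as protein-coding. Locations were read from protein-coding genes only, so a peak called between genes may lie in a non-coding gene. Entries with the same symbol, chromosome and strand were merged, and mitochondrial genes were left out. Distances run from the nearest TSS to the peak midpoint. Named genes were all members, each with its distance, and those within 100 kb of a peak in full. Members, gene lists and words were chosen with earlier results of these data known. Sequences were read from mm9, positions counting from 1. Functions were tested on simulated data. Python 3.11.15, numpy 2.4.6 and matplotlib 3.10.9 were used. The share among genes of at least 100 kb, and the use of peaks by score for gene bodies, were added after seeing the data. The values of 1 effector gene are not reported here. Knockdown arrays and other assays were not analysed here.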

Additional observations from a re-analysis of the deposited data

How the results depend on the processing

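Of 30 comparisons of a count or median with an alternative setting, 25 stayed within 1.5 times the reported value. With the starts of all annotated transcripts, 2 genes were within 1 kb of a peak in place of 1 (background 1.96%), because a transcript of *Slit2* not annotated as protein-coding starts there. The count within 10 kb was then 3 (background 4.02%). That within 100 kb was 15 (background 18.9%), with *Unc5c*, *Slit3* and *Plxnd1* added. Among the peaks at or above the median score, 7 genes were within 100 kb in place of 12 (background 10.5%) and the median distance was 994 kb (1003 kb over all genes), with 714 of the 1427 peaks in use. With the same peaks, 4 genes (6.67%) held one inside the gene body in place of 6 (background 1.34%). With regulatory regions extended by up to 100 kb, 5 genes had a peak in place of 9 (background 7.11%). With no mismatch, 3 peaks held the CTCF word in place of 5. Under the other settings, the count within 1 kb stayed at 1, that within 10 kb stayed at 2, and that within 100 kb was 11 or 12. No paired analysis was possible because each peak has 1 value for all pull-downs. For the same reason no pull-down could be left out. Depth is unknown, so what it limits could not be assessed.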
